A study of Mus musculus with 11 samples.

Results

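The transcripts of 39 genes listed as targets of TRP53 were followed gene by gene in mouse thymocytes, the T cell precursors that mature in the thymus. The 39 were taken from a written list of known target genes, without the 3 genes deleted in the study, and all of them were found among the 54418 genes of the count table. Thymus was taken from young adult mice of 8 to 12 weeks, and libraries were made from a fixed number of mashed thymus cells of 4 wt, 4 Zmat3-/- (ZKO) and 3 Zmat3-/- Puma-/- p21-/- (TKO) mice. The mutant alleles are present in every cell of the animal, all mice were kept on a C57BL/6-WEHI background, and no treatment is named for any of them. No Trp53-deficient or irradiated mouse was among these samples, and dependence of the 39 genes on TRP53 in these cells could not be measured.

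TRP53 is a transcription factor that is held at a low level by MDM2, which marks it for degradation. Upon DNA damage or other stress TRP53 is stabilised, binds to response elements near its target genes and raises their transcription, which leads to DNA repair, metabolic adaptation, cell cycle arrest or apoptosis. Thymocytes are known for dying readily by this route, mainly through PUMA (encoded by Bbc3), while p21 (encoded by Cdkn1a) arrests the cell cycle and ZMAT3 binds RNA. The 39 genes fall into 6 of DNA repair and genome stability, 12 of metabolism and redox balance, 7 of cell death and autophagy, 7 of membrane, secreted and signalling proteins, and 7 of cell cycle, mitosis and other functions.

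A response element of TRP53 consists of 2 half-sites of 10 bases each. To see which of the 39 carry one close to the start of the gene, the consensus was searched without a spacer, on both strands, in windows from 250 bases before to 50 bases after each start (RefSeq, GRCm38.p6), with at most 2 mismatches outside the fixed C and G of each half-site. Windows were matched for 32 of the 39 genes. Ddb2, Xpc, Rrm2b, Gls2, Trp53inp1, Perp and Pvt1 were not analysed for this. A match was found for 4 of the 32 (12.5%), and for 0.392% of all 27025 genes with a window. The 4 sites are shown because they are the only matches found this near to the start of a listed gene. Capitals mark the 20 bases of the match, and each sequence reads in the direction of its gene.
Ccng1: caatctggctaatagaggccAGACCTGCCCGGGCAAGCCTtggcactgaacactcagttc
Gtse1: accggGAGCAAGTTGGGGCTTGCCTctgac
Ckap2: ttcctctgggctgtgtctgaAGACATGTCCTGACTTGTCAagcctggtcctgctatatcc
Zfp365: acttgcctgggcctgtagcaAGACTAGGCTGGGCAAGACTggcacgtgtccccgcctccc
These lie at chr11:40755442-40755501 on the minus strand, chr15:85859940-85859969 on the plus strand, chr8:22185983-22186042 on the minus strand and chr10:67912686-67912745 on the minus strand. The sites of Ccng1 and Gtse1 hold 1 mismatch each, those of Ckap2 and Zfp365 hold 2. A match of letters is not evidence of binding, and many response elements lie outside such windows. In the results below, Ccng1 was higher in the mutant mice without passing the test, and Gtse1, Ckap2 and Zfp365 had overlapping ranges in all 3 genotypes.

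The libraries held 17669715 to 80207003 estimated counts. Thymocyte markers (12 genes) summed to 11413 to 15400 CPM (counts scaled to library size with TMM factors over the 11 mice). Other cells were present too, with erythroid sums of 848 to 8830 CPM, B cell sums of 489 to 818 CPM, myeloid sums of 213 to 561 CPM, endothelial sums of 105 to 140 CPM, epithelial sums of 45.3 to 179 CPM and fibroblast sums of 10.8 to 45.8 CPM. The erythroid sum was 1009, 848, 8830 and 2252 CPM in wt mice 1 to 4, 1181 to 5907 CPM in ZKO and 2750 to 3780 CPM in TKO mice, and its part in the results was not tested. None of the 20 epithelial and myeloid markers was at 0 in any mouse. The deleted genes were still counted. Zmat3 stood at 9.24, 11.8, 27.6 and 27.8 CPM in wt mice 1 to 4, at 5.47 to 7.01 CPM in ZKO and at 7.72 to 8.27 CPM in TKO mice. Cdkn1a stood at 3.64 to 10 CPM in wt, 4.94 to 9.01 CPM in ZKO and 2.33 to 3.62 CPM in TKO mice, and Bbc3 at 17.3 to 19.4, 15.7 to 20.3 and 12.3 to 16.1 CPM. Every mutant mouse was below every wt mouse for Zmat3, and every TKO mouse was below every wt mouse for Cdkn1a and Bbc3.

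The wt mice fell into 2 pairs, and this touches every comparison with wt mice. Across the genes tested, log2 CPM correlated at 0.983 between wt mice 1 and 2 and at 0.983 between wt mice 3 and 4, but only at 0.892 to 0.923 between the pairs. The ZKO mice correlated at 0.986 to 0.991 and the TKO mice at 0.972 to 0.983 among themselves. Genes are not independent replicates, so these values only describe the libraries. The labels give no batch for this split. Xist, which is transcribed from the inactive X chromosome of females, was high (472 to 1525 CPM) in wt mice 1 and 2, ZKO mice 1 and 2 and TKO mouse 1, and low (0.754 to 2.63 CPM) in the other 6 mice. The part of sex in the split was not tested. Transcripts of the mitochondrial genome made up 4.25% to 6.31% of counts in wt, 6.54% to 14.6% in ZKO and 3.86% to 9.29% in TKO mice, higher in every ZKO mouse than in every wt mouse.

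The split followed the length of the gene. Among the shortest of 5 equal classes of genes by exonic length the median difference between wt mice 1 and 2 and wt mice 3 and 4 was 0.60 on the log2 scale, and in the longest class it was −0.69. For ZKO mice numbered alike the medians ran only from 0.07 to −0.05. Among the 34 target genes tested, the rank correlation (Spearman) of exonic length with the wt split was −0.746, and over all genes tested it was −0.474. For the ZKO split it was −0.368 among the 34. These values describe genes of the same libraries, and no test was made. Rrm2b, a subunit of ribonucleotide reductase that supplies deoxynucleotides for repair and the longest of the 39 at 9.134 kb of exons, had 9.44 and 13.9 CPM in wt mice 1 and 2 against 33.6 and 33.0 CPM in wt mice 3 and 4. Dcxr, a carbonyl reductase of the pentose and uronate pathways with 1.144 kb, ran the other way, at 9.04 and 8.25 CPM in wt mice 1 and 2 against 1.84 and 2.51 CPM in wt mice 3 and 4. The level of Rrm2b in the 7 mutant mice, 24.2 to 30.1 CPM, lay between the 2 wt pairs, as did that of Dcxr in the 4 ZKO mice, at 3.57 to 6.03 CPM.

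**Figure D1:**
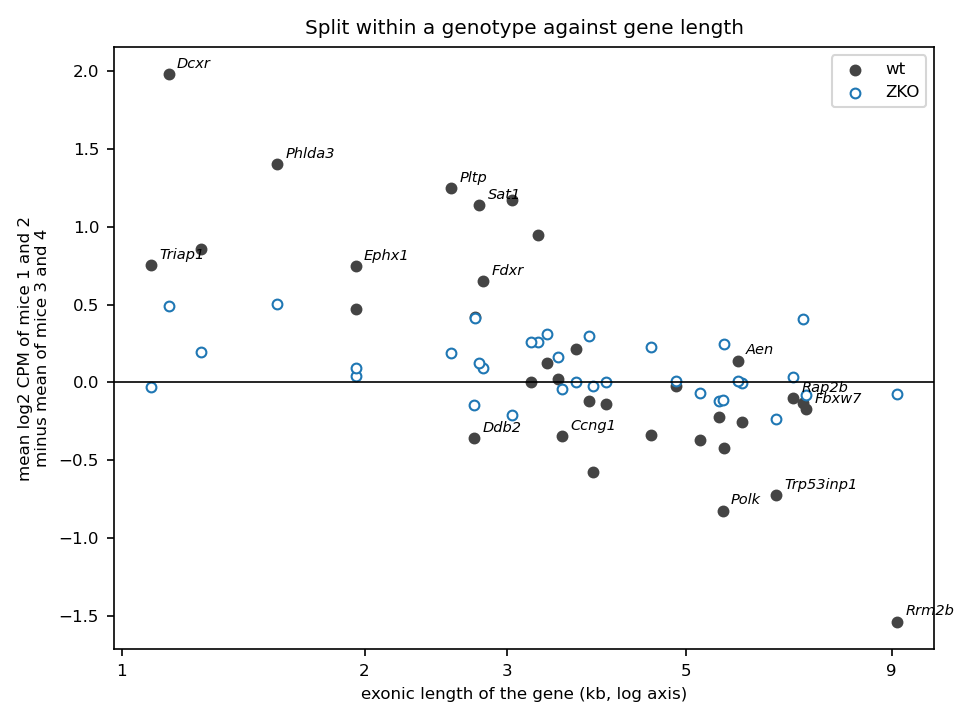
Difference in mean log2 CPM between mice 1 and 2 and mice 3 and 4 (vertical axis) against exonic length in kb (log axis) for the 34 target genes tested, in wt (filled) and ZKO mice (open). In wt mice the points descend from Dcxr at 1.98 to Rrm2b at −1.54, whereas only 1 of the 34 open points lies beyond 0.5 in size.

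Of the 34 genes, 22 (64.7%) had values in wt mice 1 and 2 that did not overlap those in wt mice 3 and 4, beside 81.7% of all genes tested. Of these, 12 were lower and 10 were higher in mice 1 and 2. In ZKO mice the count was 12 (35.3%) beside 54.4%. A difference above 0.5 on the log2 scale was seen for 14 of the 34 in wt and for 1 in ZKO mice.

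**Figure D2:**
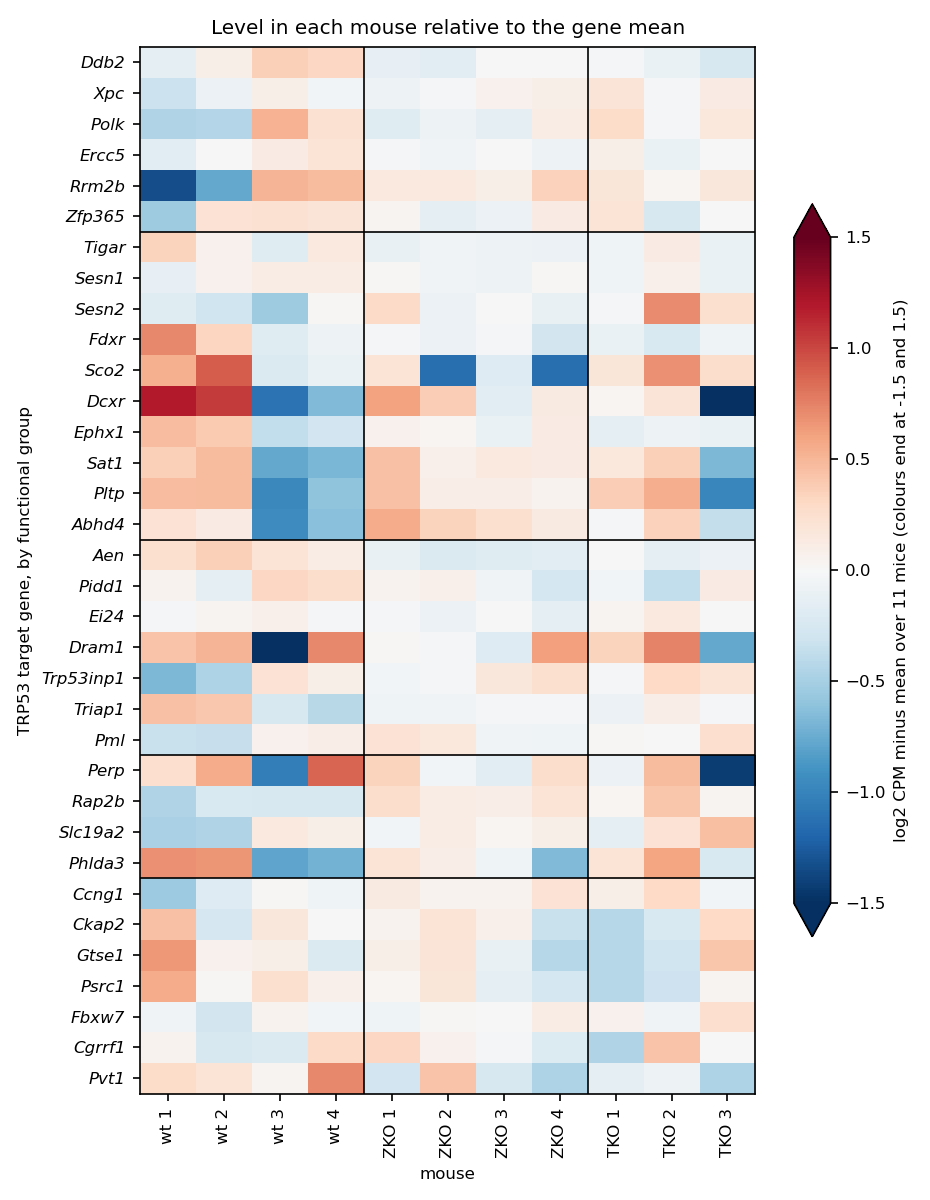
Log2 CPM of the 34 target genes tested (rows, separated by functional group) in each of the 11 mice (columns), each gene minus its own mean, with red for higher and blue for lower values. The columns of wt mice 1 and 2 differ from those of wt mice 3 and 4 in most rows, Aen is above its mean in all 4 wt mice and Rap2b below it.

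Levels were ranked per kb of exon, since longer transcripts yield more counts. Trp53inp1, which encodes a stress protein that acts in autophagy and promotes cell death, had by far the highest level with a mean of 172 CPM per kb over the 11 mice. It was followed by Sat1 (35.9 CPM per kb), a rate-limiting enzyme of polyamine breakdown, Ccng1 (29.8), which encodes cyclin G1, Sesn1 (26.7), a sestrin that restrains mTORC1, and Ddb2 (24.2), which recognises UV lesions. In wt mice alone the order of the last 3 was Sesn1 (27.5 CPM per kb), Ddb2 (27.0) and Ccng1 (25.9). The lowest of the genes that could be tested was Pvt1 at 0.294 CPM per kb, a long non-coding RNA next to Myc. The lowest of all 39 was Eda2r at 0.00814 CPM per kb, a receptor of the TNF receptor family.

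Of the 39 genes, 34 passed the filter in each comparison (a library-size-scaled count of 20 or more in 3 mice, or in 4 for ZKO against wt), and Gls2, Ak1, Gdf15, Epha2 and Eda2r did not. Their raw counts are given mouse by mouse. Gls2, a mitochondrial glutaminase, had 10, 19, 4 and 5 counts in wt, 33, 12, 7 and 5 in ZKO and 18, 5 and 13 in TKO mice. Ak1, an adenylate kinase, had 4, 7, 0 and 7 in wt, 4, 5, 13 and 7 in ZKO and 12, 1 and 6 in TKO mice. Gdf15, a secreted stress cytokine, had 20, 13, 0 and 7 in wt, 11, 7, 7 and 17 in ZKO and 19, 7 and 9 in TKO mice. These 3 overlapped between all genotypes. Eda2r, a receptor of the TNF receptor family, had 2, 3, 0 and 0 counts in wt, 1, 1, 2 and 0 in ZKO and 5, 2 and 2 in TKO mice, so that 3 of 11 mice were without a count, where 3 counts correspond to 0.0377 to 0.176 CPM. Epha2, an ephrin receptor, was counted in every mouse, with 19, 29, 22 and 14 counts in wt, 24, 21, 16 and 17 in ZKO and 32, 15 and 77 in TKO mice. Its TKO mice, at 0.827 to 0.968 CPM, all lay above its ZKO mice, at 0.549 to 0.722 CPM, with an exact permutation p = 0.0286, a comparison singled out after the values were seen. When genes were kept by filterByExpr instead, its log2FC in TKO against ZKO mice was 0.48 (SE 0.313, edgeR adjusted p = 0.992). In the alternatives with other count filters none of the 5 genes had an unadjusted p under 0.05 in edgeR, the lowest being this one at 0.153.

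TKO thymocytes were compared with wt thymocytes to see what losing ZMAT3 together with PUMA and p21 did to the target genes. No target gene was called differentially expressed in edgeR's quasi-likelihood test (adjusted p under 0.05 and log2FC beyond 1.5 in size), against 0.241% of all 13275 genes tested, and none passed an adjusted p of 0.05 at any fold, against 0.294%. DESeq2 gave 0 for both as well, against 0.776% and 2.88% of all genes. At an unadjusted p under 0.05 there were 4 of 34 (11.8%), against 10.3% of all genes, and this share is near the background. Aen, Ddb2 and Psrc1 were lower and Rap2b was higher. The median log2FC of the 34 was −0.056, that of all genes −0.04, with 13 higher and 21 lower. The log2FC of 29 of them lay within 0.5 of 0, and the extremes of the 34 were Dcxr at −0.82 and Sesn2 at 0.51.

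The count of 4 fell to 0 without TKO mouse 2, to 2 without wt mouse 2 and to 2 without TKO mouse 3, while the share of all genes fell to 5.36%, 6.64% and 6.74%. The median was −0.21 without TKO mouse 2, −0.19 without wt mouse 3, −0.11 without wt mouse 4 and 0.021 without TKO mouse 3. Fewer cells of a type and less RNA per cell cannot be told apart in these bulk samples.

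ZKO thymocytes were compared with wt thymocytes to see the effect of ZMAT3 loss alone. Again no target gene was called by edgeR, against 0.319% of all 13480 genes tested, and none passed an adjusted p of 0.05, against 0.764%. With the block of replicate numbers both counts were again 0, against 0.0593% and 0.089% of all genes. DESeq2 passed Aen and Rap2b at an adjusted p of 0.05 (5.88%, against 8.03% of all genes), at a fold well under the threshold. An unadjusted p under 0.05 was found for 3 genes (8.82%, against 16.1% of all genes), with Aen and Ddb2 lower and Rap2b higher. The median log2FC of the 34 genes was −0.14 and that of all genes −0.03, with 13 higher and 21 lower. The extremes were Sco2 at −0.86 and Abhd4 at 0.48. Without wt mouse 3 the count at p under 0.05 rose to 6 (17.6%, against 20.6% of all genes). The median was −0.029 without wt mouse 1, −0.066 without wt mouse 2 and −0.088 without wt mouse 4.

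Both comparisons use the same 4 wt mice, so that their similarity is not a second observation. The third comparison, TKO against ZKO, does not use them and asks what PUMA and p21 loss added to ZMAT3 loss. No gene was called, against 0.122% of all 13132 genes tested, and none passed an adjusted p of 0.05, against 0.221%, in edgeR. DESeq2 also gave 0 for both, against 0.145% and 0.548% of all genes. The single gene at an unadjusted p under 0.05 was Sco2 (2.94%, against 4.5% of all genes). The count was 0 without ZKO mouse 2 and without TKO mouse 1 (against 2.97% and 8.74% of all genes), 2 without TKO mouse 2 (5.71%, against 5.21% of all genes) and 3 without TKO mouse 3 (8.82%, against 6.24%). The median log2FC was −0.0043, with 17 higher and 17 lower, and the median standard error of 0.131 was smaller than the 0.244 of TKO against wt mice.

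**Figure D3:**
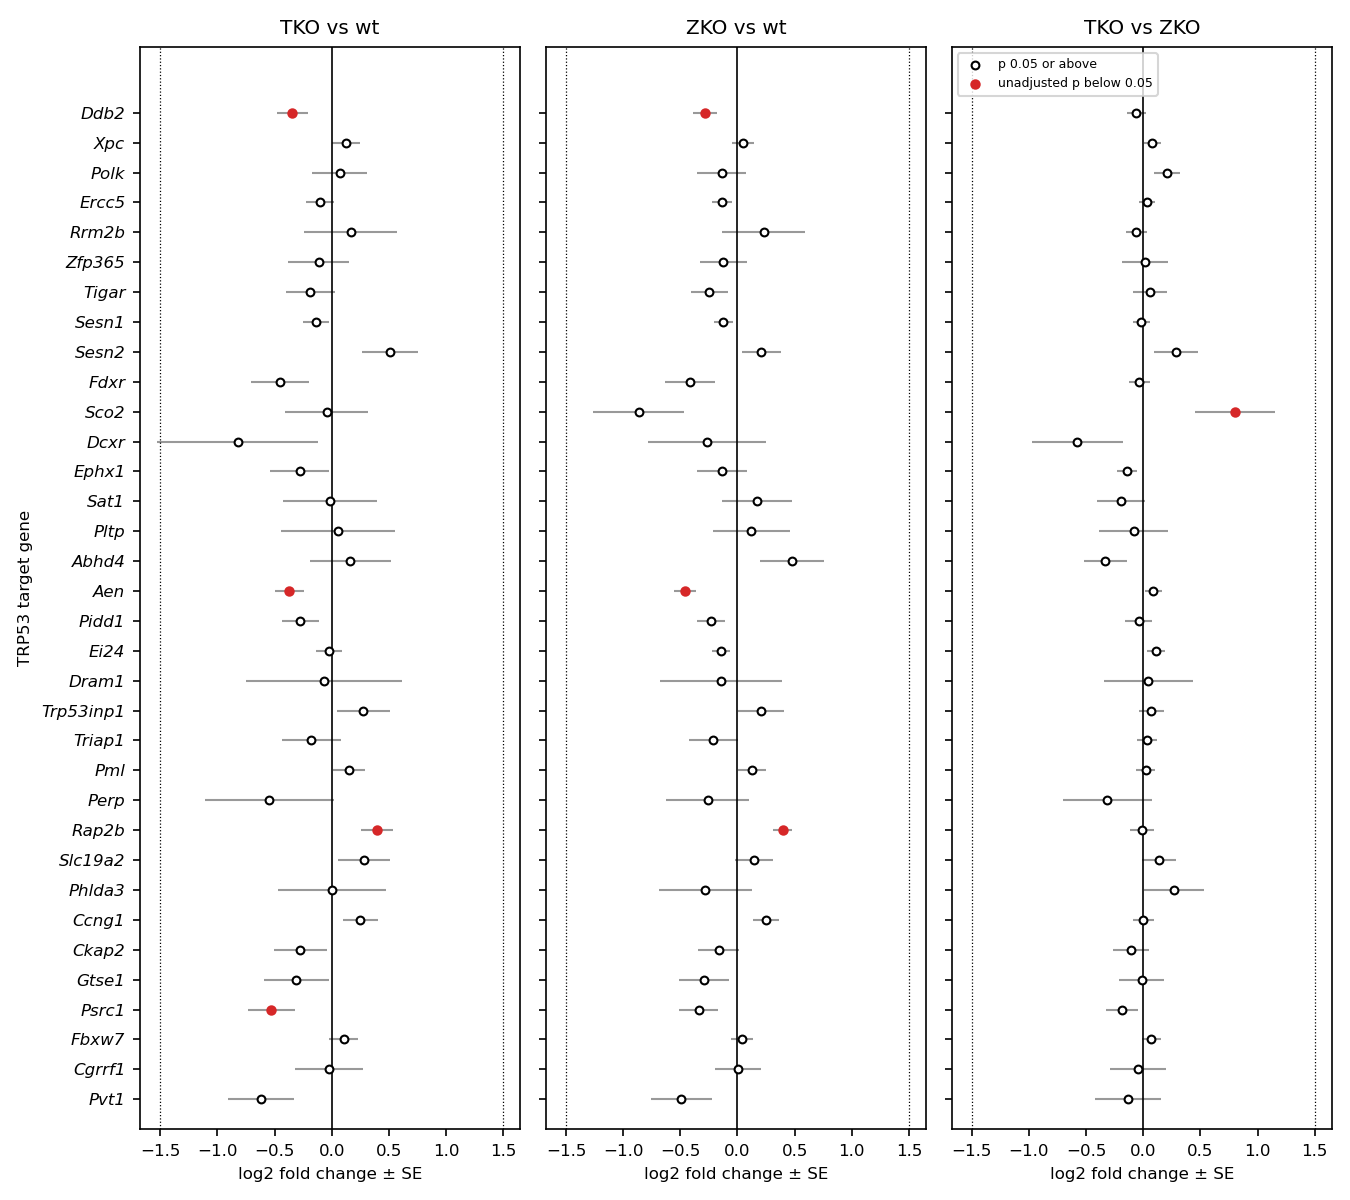
Log2 fold change ± SE from edgeR of the 34 target genes tested (rows) in the 3 comparisons, with dotted lines at the fold threshold of 1.5 and filled points for an unadjusted p below 0.05. No point lies beyond the dotted lines, and the filled points number 4, 3 and 1 from left to right.

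A gene whose range of values in the mutant mice did not overlap that in the wt mice was counted separately, on CPM scaled over the mice of the comparison alone. In TKO against wt mice 5 of 34 genes did not overlap (Aen, Ddb2 and Pvt1 lower, Rap2b and Ccng1 higher), which is 14.7% against 12% of all genes. In ZKO against wt mice there were 3 (Aen lower, Rap2b and Ccng1 higher), or 8.82% against 14.1%. In TKO against ZKO mice Sco2 alone did not overlap, or 2.94% against 5.54%. With the scaling over all 11 mice used for the values printed here, these counts were 3, 3 and 0 (8.82%, 8.82% and 0%, against 13.7%, 14.3% and 5.49% of all genes), since Ddb2, Ccng1 in TKO mice and Sco2 then overlapped. Between both ways of scaling, the scales of wt mouse 1 and TKO mouse 3 each moved by 0.14 (log2) in TKO against wt mice. That of wt mouse 1 moved by 0.12 in ZKO against wt mice. In TKO against ZKO mice the shifts ran from −0.062 to −0.028. Fewer mice overlap less readily by construction. The count was 8 in TKO against wt mice without any single TKO mouse, or 22.9% to 23.5%, when 17.4% to 20.8% of all genes did not overlap. In ZKO against wt mice it was 7 without wt mouse 1 (20.6%, against 17.3%), and 5 without wt mouse 3, ZKO mouse 2 or ZKO mouse 4 (14.7%, against 16.5% to 18.7%). In TKO against ZKO mice it was 8 without TKO mouse 2 (22.9%, against 13%), 5 without TKO mouse 3 (14.7%, against 14.1%), 3 without ZKO mouse 1 or 3 (8.82%, against 8.52% and 8.86%) and 2 without ZKO mouse 4 or TKO mouse 1 (5.88%, against 9.38% and 18.3%).

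Aen and Rap2b had the lowest p-values of the 34 genes in both comparisons with wt mice. Aen (ENSMUSG00000030609.18, chr7:78895854-78911209, plus strand) encodes an exonuclease that degrades DNA during apoptosis. It stood at 40.2, 43.5, 39.2 and 36.8 CPM in wt mice 1 to 4. In ZKO mice it stood at 31.4, 29.3, 30.0 and 30.2 CPM and in TKO mice at 34.0, 30.9 and 31.9 CPM. Every mutant mouse was below every wt mouse, with means of 39.9 ± 2.80 (SD, n = 4), 30.2 ± 0.878 (SD, n = 4) and 32.3 ± 1.61 CPM (SD, n = 3). The log2FC was −0.46 in ZKO against wt mice (SE 0.0938, edgeR adjusted p = 0.0707) and −0.37 in TKO against wt mice (SE 0.128, edgeR adjusted p = 0.427). In exact permutation tests of log2 CPM (two-sided) both differences gave p = 0.0286, the smallest that these group sizes allow. Groups without overlap give this p or one near it, and 14.3% (ZKO) and 13.7% (TKO) of all genes did not overlap on this scaling. Aen is described here for its low p, so the permutation test adds no separate support. Flipping signs within 4 pairs of ZKO and wt mice, formed by number though the labels name no pairing, gave an exact p = 0.125, again the smallest possible. With the block of replicate numbers the edgeR adjusted p was 0.221 in ZKO against wt mice. It was 0.0313 in ZKO mice when all genotypes shared 1 fit, where 1.77% of all genes passed. Over the 19 alternatives the adjusted p in ZKO against wt mice ran from 7.04e-05 (DESeq2) to 0.249 and was under 0.05 in 5. In these 5, from 1.77% to 56.1% of all genes passed 0.05, with 8.03% in DESeq2. Between TKO and ZKO mice the log2FC was 0.09 (SE 0.0761, edgeR adjusted p = 0.982).

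Rap2b (ENSMUSG00000036894.3, chr3:61361638-61368430, plus strand), a small GTPase of the RAS family, moved the other way. In wt mice 1 to 4 it stood at 33.0, 38.3, 38.2 and 38.1 CPM. In ZKO mice the values were 53.9, 48.4, 48.1 and 51.6 CPM, and in TKO mice 45.8, 59.8 and 46.0 CPM. All mutant mice lay above all wt mice, at 50.5 ± 2.75 (SD, n = 4) and 50.5 ± 8.03 CPM (SD, n = 3) against 36.9 ± 2.61 CPM (SD, n = 4). The log2FC was 0.40 in ZKO against wt mice (SE 0.0826, edgeR adjusted p = 0.0727) and 0.39 in TKO against wt mice (SE 0.140, edgeR adjusted p = 0.427), with exact permutation p = 0.0286 in both. As for Aen, the permutation p follows from the lack of overlap and adds no separate support. Within the 4 pairs of ZKO and wt mice the exact p was 0.125. With the block the edgeR adjusted p was 0.233 in ZKO against wt mice, and in 1 fit of all genotypes 0.0913. Over the 19 alternatives it ran from 2.41e-05 (DESeq2) to 0.268 and was under 0.05 in 4. In these 4, from 8.03% (DESeq2) to 56.1% of all genes passed 0.05. Between TKO and ZKO mice the log2FC was −0.01 (SE 0.106, edgeR adjusted p = 0.999).

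Both genes kept their direction against each of the 2 wt pairs. Their mutant and wt mice did not overlap, so this direction was fixed in advance and adds no support. Against wt mice 1 and 2 alone the log2FC of Aen in ZKO mice was −0.58 (SE 0.0745), and against wt mice 3 and 4 alone −0.35 (SE 0.0724). In TKO mice it was −0.48 (edgeR adjusted p = 0.0114) and −0.25 (edgeR adjusted p = 0.153), in fits where 43.6% and 8.14% of all genes passed 0.05. For Rap2b the values were 0.39 (SE 0.0851) and 0.38 (SE 0.0736) in ZKO mice. In TKO mice they were 0.40 (edgeR adjusted p = 0.0651) and 0.38 (edgeR adjusted p = 0.132). In ZKO mice 8 of the 34 target genes (23.5%) passed an adjusted p of 0.05 (edgeR) against each wt pair taken alone, as did 20.7% of all 13812 genes. Aen and Rap2b were the 2 of the 8 with the same direction against both pairs, or 5.88% of the 34, against 6.49% of all genes. The share of mitochondrial transcripts was higher in every ZKO than in every wt mouse, and its part in these differences was not tested. The pairs were separated after the data were seen. Rap2b lies on the chromosome of Zmat3, 29.0 Mb from it, and Aen on that of Bbc3, 62.6 Mb from it.

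Words of 31 bases were compared between transcripts, read on both strands since the library kit does not mark strand. Of the words of Rap2b, 57.8% also occur in other genes, mostly in B430305J03Rik, which lies within it on the opposite strand. This gene was without a count in 6 of the 11 mice and reached at most 0.567 CPM. For Aen the share was 3.83%.

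**Figure D4:**
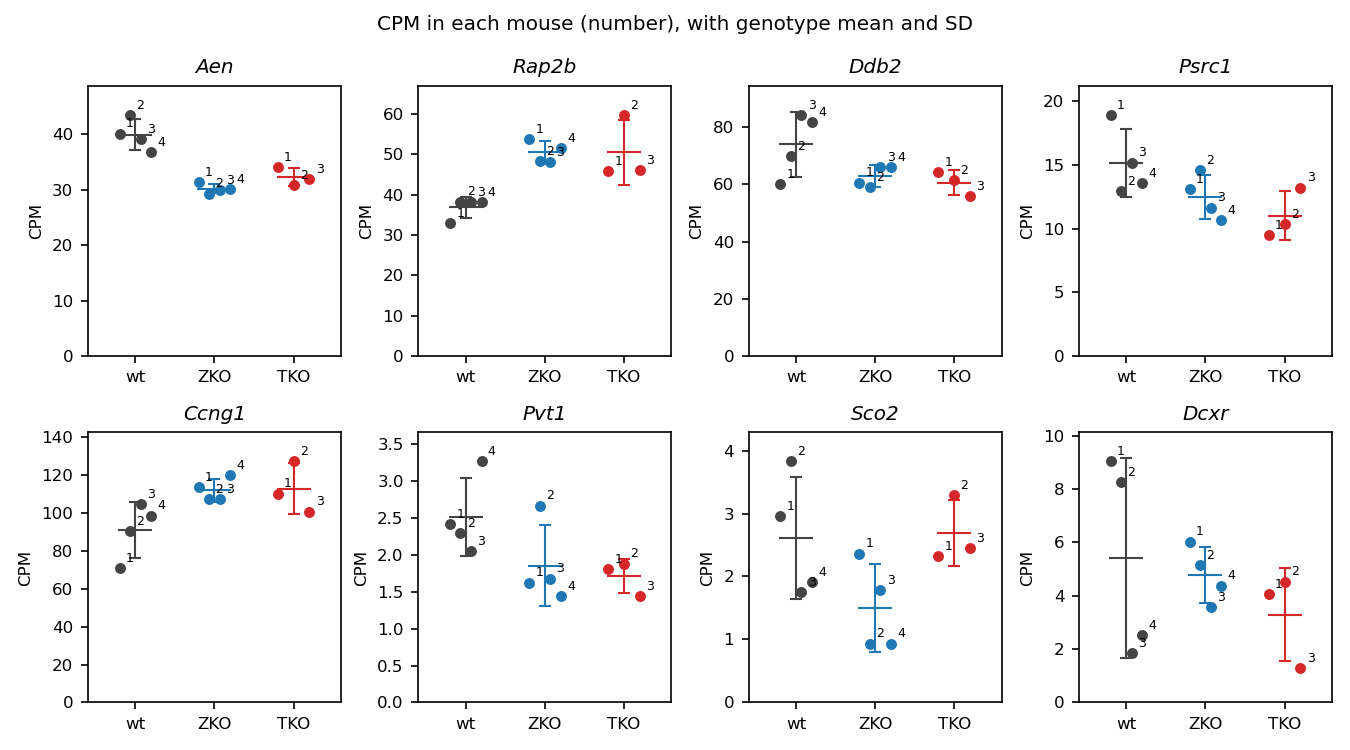
CPM of 8 target genes in each mouse (points, numbered by mouse) by genotype, with the mean (bar) and SD (whiskers). For Aen the lowest wt point is at 36.8 CPM and the highest mutant point at 34.0 CPM, for Rap2b the order is inverted, and for Dcxr wt mice 1 and 2 lie apart from wt mice 3 and 4.

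Of the 6 repair genes, 3 were higher and 3 lower in TKO mice, and 2 were higher and 4 lower in ZKO mice. Their median log2FC was −0.02 in TKO and −0.13 in ZKO mice. Ddb2 (ENSMUSG00000002109.14, chr2:91211572-91236982, minus strand) had 60.0, 69.9, 84.3 and 81.7 CPM in wt mice 1 to 4. In ZKO mice it had 60.6, 59.0, 66.1 and 66.1 CPM and in TKO mice 64.3, 61.6 and 55.9 CPM. Wt mouse 1 lay among the mutant mice, the other wt mice above them. Its log2FC was −0.34 in TKO (SE 0.138, edgeR adjusted p = 0.453) and −0.28 in ZKO mice (SE 0.109, edgeR adjusted p = 0.253), with an exact permutation p = 0.143 in both. Within the 4 pairs of ZKO and wt mice the exact permutation p was 0.25 on the scaling over all 11 mice, with 3 pairs lower in ZKO mice, and 0.125 on that of the comparison alone, with 4. Against wt mice 1 and 2 alone the difference in ZKO mice was −0.15 (edgeR adjusted p = 0.15) and against wt mice 3 and 4 alone −0.42 (edgeR adjusted p = 0.00141). In TKO mice they were −0.20 (edgeR adjusted p = 0.23) and −0.47 (edgeR adjusted p = 0.0348). Against wt mice 3 and 4 alone 33% (ZKO) and 8.14% (TKO) of all genes passed 0.05. With 1 surrogate variable the edgeR adjusted p of Ddb2 was 0.000782 in ZKO and 0.0242 in TKO mice, where 37.8% and 14.1% of all genes passed. The neighbouring gene Acp2, with which Ddb2 shares 20.2% of its words, had a log2FC of −0.06 in ZKO and of −0.18 in TKO mice.

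Xpc, which detects lesions in nucleotide excision repair, and Ercc5, an endonuclease of the same pathway, stayed within narrow ranges of 47.9 to 68.3 CPM and 32.5 to 42.5 CPM over the 11 mice. Polk, a polymerase that copies past lesions, ranged from 14.4 to 28.4 CPM, and both extremes were wt mice. The largest standard error of the group was that of Rrm2b (0.410 in TKO against wt mice). Zfp365, which protects genome stability, was the lowest of the group at 0.609 CPM per kb, with 2.16, 3.64, 3.68 and 3.59 CPM in wt mice, 3.22, 2.84, 2.95 and 3.40 CPM in ZKO and 3.59, 2.65 and 3.13 CPM in TKO mice. These ranges overlapped.

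Among the genes of metabolism and redox balance, 10 of 12 were tested. In TKO mice 3 were higher and 7 lower, in ZKO mice 4 higher and 6 lower, and none had an unadjusted p under 0.05 against wt mice. Sco2 (ENSMUSG00000091780.3, chr15:89371637-89373846, minus strand), which helps to assemble cytochrome c oxidase, had 2.96, 3.83, 1.75 and 1.91 CPM in wt mice. It had 2.36, 0.934, 1.78 and 0.935 CPM in ZKO mice and 2.33, 3.29 and 2.45 CPM in TKO mice. The lowest 2 values were ZKO mice, while the wt range enclosed all TKO values. The log2FC was 0.80 in TKO against ZKO mice (SE 0.348, edgeR adjusted p = 0.982, exact permutation p = 0.0857). Of its words, 89.7% occur in other genes, mainly Tymp, at 1.24 to 3.40 CPM, and counts could be divided differently between them. Its opposite-strand neighbour Ncaph2 had 156 to 270 CPM.

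Dcxr (ENSMUSG00000039450.11, chr11:120725399-120727281, minus strand) had the lowest log2FC of TKO against wt mice, −0.82 (SE 0.704, edgeR adjusted p = 0.67), from 4.06, 4.53 and 1.28 CPM in TKO mice. With wt mice 1 and 2 as the only controls it was called, as were 5.06% of all genes, at −1.53 (edgeR adjusted p = 0.0269). With wt mice 3 and 4 as the only controls it was 0.56. In ZKO mice the same 2 values were −0.96 and 1.11.

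Dcxr was 1 of 5 target genes whose 3 lowest mice were wt mouse 3, wt mouse 4 and TKO mouse 3. Of the 34 genes tested 4 did so (11.8%, the fifth being Gls2), against 8.48% of the 12961 genes tested in every comparison. Sat1 (ENSMUSG00000025283.15, chrX:155213132-155216449, minus strand) had 122, 132, 56.0 and 59.1 CPM in wt mice, 129, 100, 105 and 104 CPM in ZKO mice and 106, 122 and 59.9 CPM in TKO mice. Pltp, which transfers phospholipids between lipoproteins, had 7.54 to 9.85 CPM in these 3 mice and 15.4 to 21.8 CPM in the other 8. For Abhd4, a lipid hydrolase, the ranges were 4.24 to 6.36 CPM and 8.04 to 12.0 CPM. The remaining one was Gls2, which is below the filter. The same 3 mice had the lowest sums of the 10 thymic epithelium markers (45.3 to 72.7 CPM against 112 to 179 CPM) and of the 10 myeloid markers (213 to 275 CPM against 360 to 561 CPM). They were the lowest 3 mice for 6 of the 10 epithelial and 7 of the 10 myeloid markers taken singly. The other lists did not show this, with 1 of 7 fibroblast, 1 of 6 B cell and 2 of 12 thymocyte markers. For endothelial, erythroid and cycling cell markers the count was 0. Endothelial sums were 128 to 136 CPM in these 3 mice and 105 to 140 CPM in the other 8. The part of epithelial and myeloid cells in the levels of the 5 genes was not tested.

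**Figure D5:**
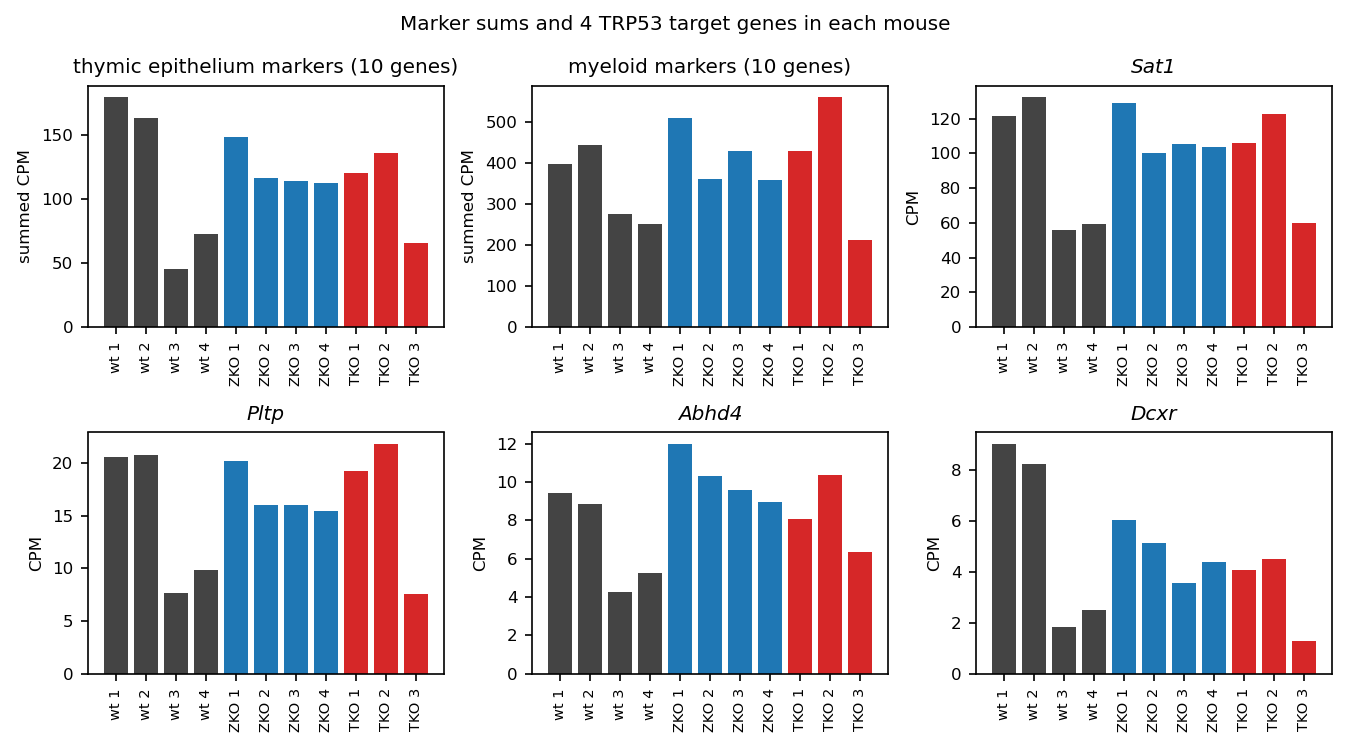
Summed CPM of 10 thymic epithelium and 10 myeloid markers and CPM of Sat1, Pltp, Abhd4 and Dcxr in each of the 11 mice (grey wt, blue ZKO, red TKO). In all 6 panels the lowest 3 bars are wt mouse 3, wt mouse 4 and TKO mouse 3.

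Sesn1 ranged from 97.4 to 115 CPM over the 11 mice. Sesn2, its relative that is induced by nutrient and oxidative stress, had 5.91, 5.45, 4.62 and 6.78 CPM in wt, 8.19, 6.34, 6.68 and 6.203 CPM in ZKO and 6.57, 11 and 7.91 CPM in TKO mice. Its log2FC was 0.51 in TKO against wt mice (SE 0.246, edgeR adjusted p = 0.524), with TKO mouse 2 well above the others. Fdxr, which passes electrons to mitochondrial cytochromes P450, was highest in wt mice 1 and 2 at 32.7 and 24.8 CPM and lay at 16.3 to 19.5 CPM in the other 9 mice. Ephx1, which hydrolyses epoxides, had 34.2 to 35.8 CPM in wt mice 1 and 2, 20.3 to 21.5 CPM in wt mice 3 and 4 and 23.6 to 28.4 CPM in mutant mice. Tigar, a phosphatase that slows glycolysis, ranged from 5.09 to 7.30 CPM. Ak1 was the lowest of the group at 0.0706 CPM per kb.

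Of the 7 genes of cell death and autophagy, 2 were higher and 5 lower in TKO and in ZKO mice, and Aen alone had an unadjusted p under 0.05. Trp53inp1 (chr4:11156431-11174379, plus strand) had 686, 789, 1268 and 1164 CPM in wt mice 1 to 4. It had 1062, 1074, 1227 and 1285 CPM in ZKO and 1076, 1343 and 1259 CPM in TKO mice. All 7 mutant mice lay above wt mice 1 and 2. ZKO mice 1 and 2 and TKO mouse 1 were below wt mice 3 and 4, and ZKO mouse 4 and TKO mouse 2 were above them. The log2FC in ZKO mice was 0.55 against wt mice 1 and 2 alone and −0.09 against wt mice 3 and 4 alone.

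Triap1, which keeps the apoptosome in check, behaved in the opposite manner. It had 28.5 and 27.8 CPM in wt mice 1 and 2, 17.7 and 15.8 CPM in wt mice 3 and 4, and 19.7 to 22.5 CPM in all 7 mutant mice. The log2FC in ZKO mice was −0.58 against wt mice 1 and 2 alone and 0.26 against wt mice 3 and 4 alone. Pidd1, which assembles the PIDDosome for caspase-2, Ei24, a protein of the endoplasmic reticulum, and Pml, which organises nuclear bodies, ranged from 21.9 to 35.3, 31.4 to 38.1 and 54.4 to 82.9 CPM. Dram1, a lysosomal membrane protein that promotes autophagy, was the lowest of the group at 0.498 CPM per kb, with 1.79, 1.89, 0.257 and 2.19 CPM in wt mice, 1.35, 1.30, 1.17 and 2.04 CPM in ZKO and 1.68, 2.24 and 0.779 CPM in TKO mice. These ranges overlapped too.

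Of the membrane, secreted and signalling proteins, 4 of 7 were tested. Rap2b was the highest per kb (6.71) and the only one with an unadjusted p under 0.05. Perp, a desmosomal protein that takes part in apoptosis, had 3.87, 4.76, 1.58 and 5.94 CPM in wt, 2.91 to 4.08 CPM in ZKO and 3.05, 4.53 and 1.21 CPM in TKO mice, and the groups overlapped. Its log2FC was −0.54 in TKO against wt mice (SE 0.564, edgeR adjusted p = 0.717). Slc19a2, a thiamine transporter, ranged from 5.71 to 10.9 CPM. Phlda3, a repressor of AKT, had 6.77 to 6.91 CPM in wt mice 1 and 2, 2.48 to 2.63 CPM in wt mice 3 and 4, and 2.72 to 6.47 CPM in mutant mice. Eda2r was the lowest of the group.

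Of the genes of cell cycle, mitosis and other functions, 2 of 7 were higher and 5 lower in TKO mice, and 3 were higher and 4 lower in ZKO mice. Ccng1 (ENSMUSG00000020326.7, chr11:40748552-40755311, minus strand), with the consensus match printed above, had 70.7, 90.5, 105 and 98.6 CPM in wt mice. It had 113, 107, 108 and 120 CPM in ZKO and 110, 127 and 101 CPM in TKO mice. All ZKO mice lay above all wt mice, and TKO mouse 3 fell between wt mice 4 and 3. The log2FC was 0.25 in both comparisons with wt mice (SE 0.115, edgeR adjusted p = 0.338 in ZKO and SE 0.154, edgeR adjusted p = 0.596 in TKO mice). In ZKO mice it was 0.37 against wt mice 1 and 2 alone (SE 0.0977, edgeR adjusted p = 0.0107) and 0.12 against wt mice 3 and 4 alone (SE 0.0642, edgeR adjusted p = 0.172).

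Psrc1 (ENSMUSG00000068744.12, chr3:108383839-108388231, plus strand), a spindle protein, had 18.9, 12.9, 15.2 and 13.6 CPM in wt mice. It had 13.1, 14.6, 11.7 and 10.7 CPM in ZKO and 9.52, 10.4 and 13.2 CPM in TKO mice. TKO mouse 3 overlapped the wt range. The log2FC in TKO mice was −0.53 (SE 0.207, edgeR adjusted p = 0.444, exact permutation p = 0.0857). Gtse1 and Ckap2, which bind microtubules in dividing cells, also had TKO mice 1 and 2 below TKO mouse 3, at 20.2, 22.2 and 36.3 CPM and at 28.1, 32.3 and 46.6 CPM. The 10 markers of cycling cells summed to 1657, 1780 and 3060 CPM in the same 3 mice and to 1493 to 2395 CPM in the other 8. Their part in these levels was not tested.

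Pvt1 (ENSMUSG00000097039.8, chr15:62037986-62378096, plus strand) had 2.42, 2.30, 2.05 and 3.27 CPM in wt, 1.62, 2.67, 1.68 and 1.44 CPM in ZKO and 1.81, 1.88 and 1.45 CPM in TKO mice. All TKO mice lay below all wt mice, whereas ZKO mouse 2 was within the wt range. The log2FC in TKO mice was −0.62 (SE 0.288, edgeR adjusted p = 0.509, exact permutation p = 0.0571). Fbxw7, a substrate receptor of a ubiquitin ligase, and Cgrrf1, a ring finger protein, ranged from 40.9 to 58.8 CPM and from 2.33 to 4.29 CPM.

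The direction of a target gene often depended on which wt mice served as controls. In ZKO mice 16 of the 34 genes changed direction between wt mice 1 and 2 and wt mice 3 and 4 as the only controls, and in TKO mice 15 of 34. Of all genes 57.6% and 55.1% did so. Of the 8 genes that passed an adjusted p of 0.05 (edgeR) against each pair in ZKO mice, 6 (17.6% of the 34, against 14.2% of all genes) had opposite directions, namely Rrm2b, Dcxr, Ephx1, Sat1, Pltp and Triap1. For Rrm2b the log2FC was 1.10 against wt mice 1 and 2 (SE 0.151) and −0.33 against wt mice 3 and 4 (SE 0.0901). For Sat1 it was −0.32 (SE 0.101) and 0.91 (SE 0.0992).

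The regulators of TRP53 and its other targets were read from a list of 42 genes outside the 39. Of 15 regulators tested, none passed an adjusted p of 0.05 in any comparison, where 0.221% to 0.764% of all genes passed. At an unadjusted p under 0.05 there was 1 (6.67%) in ZKO and 1 in TKO against wt mice, against 16.1% and 10.3% of all genes. Without overlap there were 4 in ZKO (26.7%, against 14.1%) and 2 in TKO mice (13.3%, against 12%). Of the 4, 2 were higher and 2 lower. Trp53 itself stood at 113 to 135 CPM in wt, 104 to 125 CPM in ZKO and 108 to 125 CPM in TKO mice. Mdm2, both target and inhibitor of TRP53, stood at 117 to 140, 125 to 143 and 122 to 149 CPM. Its log2FC was 0.00 in ZKO (SE 0.0926, edgeR adjusted p = 0.99) and 0.03 in TKO mice (SE 0.121, edgeR adjusted p = 0.939). Of 23 other targets tested, 7 (30.4%) had an unadjusted p under 0.05 in ZKO against wt mice, against 16.1% of all genes. In TKO against wt mice there were 4 (17.4%, against 10.3%). Without overlap there were 7 in ZKO (30.4%, against 14.1%) and 6 in TKO mice (26.1%, against 12%). The list was chosen with earlier results of these data known. Only Plk2, a polo-like kinase, passed an adjusted p of 0.05 and was called, where 0.319% (ZKO) and 0.241% (TKO) of all genes were called. It had 1.17, 1.51, 0.556 and 0.598 CPM in wt mice, 5.86, 5.94, 7.03 and 7.90 CPM in ZKO and 8.27, 7.59 and 6.14 CPM in TKO mice. Its log2FC was 2.70 in ZKO (SE 0.356, edgeR adjusted p = 0.0191) and 2.84 in TKO mice (SE 0.411, edgeR adjusted p = 0.048). When replicate numbers were blocked Plk2 was no longer called, with log2FC of 2.79 in ZKO (SE 0.407, edgeR adjusted p = 0.135) and 2.76 in TKO mice (SE 0.360, edgeR adjusted p = 0.109).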

How the data were processed

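The authors pseudo-aligned paired reads of unstranded poly(A) libraries by Salmon, run through nf-core/rnaseq (GRCm38.p6, GENCODE release 25) and deposited estimated counts per gene, without normalization. All 598598 values are whole numbers, so rounding changed none. The authors analysed them with DESeq2 1.40.0 with sex and surrogate variables. The labels give no sex. Genes were named by Ensembl identifier from GENCODE release 21, which matched 54166 of 54418 and left 252 unmatched.

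Genotypes were compared pairwise with edgeR 4.0.16 in R 4.3.3 (TMM factors, quasi-likelihood F-test, two-sided, Benjamini-Hochberg adjustment over all genes tested), leaving out Xist, chromosome Y, rRNA and non-coding immunoglobulin genes. Each SE was taken as the size of the log2FC over root F. Printed CPM use TMM factors over all 11 mice. Exact permutation tests were run on log2 CPM (prior count 2). With 3 or 4 mice a group their smallest p is 0.0286. The script was tested on simulated data. Samples carry numbers within each genotype in the labels and were taken as separate mice. Floors of 3 counts cover counting error only.

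The target genes and lists were chosen with earlier results of these data known. Values per mouse are given for target genes with an unadjusted p under 0.05, without overlap or called in any setting, for those below the filter (as counts), and for the highest and lowest per kb of each group. Other target genes are given by range. The genes Acp2, Tymp, Ncaph2 and B430305J03Rik, and the extra values for Sesn2, Perp, Phlda3, Rrm2b, Fdxr, Ephx1, Triap1, Gtse1, Ckap2, Pltp and Abhd4, were chosen after their values were seen.

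Replicate numbers come from the sample labels. Deviations from the genotype means correlated between ZKO and wt mice of the same number at 0.116 to 0.339, and the numbers were treated as pairs there. Between TKO and wt (0.0730 to 0.405) and TKO and ZKO mice (0.0194 to 0.172) they were not, although these ranges overlap the first. The labels name no pairing, so it is an assumption. Xist was high in mice 1 and 2 and low in mice 3 and 4 of both wt and ZKO, and its part in these correlations was not tested. Alternatives were DESeq2 1.42.0, RLE factors, other count filters, 1 fit of all genotypes, the replicate block, the Xist level, 1 surrogate variable (sva 3.50.0) and each mouse left out. Leaving out wt mice 1 and 2 or 3 and 4 together, removing the length trend, the exact test within pairs and TMM factors over all 11 mice for the count without overlap were chosen after seeing the data.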

Additional observations from a re-analysis of the deposited data

Results flagged for a closer look

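In 68 groups of 4 mice (34 target genes in wt and in ZKO mice), 4 held a mouse whose gap to its nearest neighbour was an unusually large share of the range of the group on the log2 scale. Chance gives about 1 in 20. Zfp365 was lowest in wt mouse 1 at 2.16 CPM, against 3.59 to 3.68 CPM in the other wt mice (share 0.953). Dram1 was lowest in wt mouse 3 at 0.257 CPM, against 1.79 to 2.19 CPM (share 0.9). Rap2b was lowest in wt mouse 1 at 33.0 CPM, against 38.1 to 38.3 CPM (share 0.973). Pltp was highest in ZKO mouse 1 at 20.2 CPM, against 15.4 to 16.04 CPM (share 0.854).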

How the results depend on the processing

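No target gene was called in any setting, with 1 exception, Dcxr in TKO against wt mice without wt mice 3 and 4 (count 1, or 2.94%, against 5.06% of all genes), whose log2FC reversed to 0.56 without wt mice 1 and 2. In TKO against wt mice the count at p under 0.05 was 1 without a filter on low counts, 7 with 1 surrogate variable, 10 without wt mice 1 and 2 and 13 without wt mice 3 and 4 (6.13%, 31.3%, 28.6% and 52.1% of all genes). The median log2FC was 0.012 without a filter, −0.0096 with filterByExpr, −0.012 with a surrogate variable, −0.0073 without wt mice 1 and 2, −0.23 without wt mice 3 and 4 and 0.012 with the length trend removed. The count without overlap was 15 and 17 without each wt pair (47.7% and 66.3% of all genes) and 3 with TMM factors over all mice (13.7%). In ZKO against wt mice the count at p under 0.05 was 6 with DESeq2, 6 with the Xist level, 16 with a surrogate variable, 15 without wt mice 1 and 2 and 20 without wt mice 3 and 4 (19.6%, 21.5%, 47.1%, 44.6% and 61.4% of all genes). The median was −0.068 with a surrogate variable, −0.059 without wt mice 1 and 2 and −0.053 with the length trend removed, and the count without overlap was 17 and 21 without each wt pair (53.5% and 68.2% of all genes). In TKO against ZKO mice the count at p under 0.05 was 0 in 1 fit of all genotypes and with the Xist level (1.37% and 4.32% of all genes), and that without overlap was 2 with RLE factors and 0 with TMM factors over all mice (5.53% and 5.49%). The causes were not tested. Leaving out 1 mouse at a time, the count at p under 0.05 ranged from 0 to 3 (TKO against wt), 3 to 6 (ZKO against wt) and 0 to 3 (TKO against ZKO), the median from −0.21 to 0.021, −0.14 to −0.029 and −0.019 to 0.056, and the count without overlap from 4 to 8, 3 to 7 and 1 to 8. With the replicate block no target gene passed an adjusted p of 0.05, the counts at p under 0.05 were 3, 4 and 1 in the same order (16.2%, 15.3% and 4.27% of all genes), and the genes at p under 0.05 were Aen, Rap2b and Dcxr, then Aen, Rap2b, Ddb2 and Abhd4, then Dcxr. Calls over all genes went from 32 to 16, 43 to 8 and 16 to 16, and among the target genes and the 42 listed with TRP53 the block changed the call of Plk2 alone. With a surrogate variable 3 target genes passed an adjusted p of 0.05 in TKO and 12 in ZKO against wt mice (8.82% and 35.3%, against 14.1% and 37.8% of all genes). Of 34 target genes, 17 in TKO against wt, 16 in ZKO against wt and 20 in TKO against ZKO mice changed direction in at least 1 alternative.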
